A study of Rattus norvegicus with 2 samples.

Results

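Rod phototransduction genes encode the proteins with which rod photoreceptors turn absorbed light into an electrical signal and end that signal again. The 9 genes described here, Gnat1, Pde6a, Pde6b, Pde6g, Cnga1, Cngb1, Sag, Rcvrn and Grk1, were taken by symbol from the deposited expression table, and all 9 were found among its 32662 genes. The data are RNA-seq of retina from Long-Evans rats aged 2 months, with 1 library from a sham-operated control retina (CTRL) and 1 library from a retina collected 12 hours after ischemia-reperfusion (IR12), an injury in which the blood supply of the eye is stopped and then restored. The sources name both a stranded mRNA kit and a stranded total RNA kit, each with removal of ribosomal RNA. Expression is given as FPKM, fragments mapped to a gene relative to its transcript length and to all mapped reads, a level that can be compared between genes because it is scaled to length. With 1 library per condition no difference has a replicate check, no test was made and no error can be given.

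In the dark, cyclic GMP holds the channels of the rod outer segment open. Light leads to activation of the G protein transducin, which frees the catalytic subunits of phosphodiesterase 6 from their inhibitory subunit, and the enzyme then breaks down cyclic GMP so that the channels close. The kinase Grk1 and arrestin act to end the response, recoverin restrains that kinase according to calcium, and cones use counterpart genes for several of these steps.

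All 9 genes were highly expressed in both retinas, and their differences between the libraries went both ways. Sag, the rod arrestin, had the largest log2 ratio of the 9 genes and Rcvrn the smallest, and these genes differed in opposite directions. No member was 2-fold lower in IR12, where 6.12% of the 13599 genes tested were, and no member was 2-fold higher, where 6.56% were. These counts hold for FPKM as deposited. Rcvrn passed 2-fold on the lower side with the sums equalised without small RNAs, where 939 genes were at least 2-fold lower. Sag passed on the higher side with the sums equalised over all genes, where 2817 genes were at least 2-fold higher. Tested genes are those with FPKM of at least 1 in at least 1 library, and log2 ratios are log2((FPKM IR12 + 1)/(FPKM CTRL + 1)). At a threshold of 1.5-fold, 1 member was lower (Rcvrn) beside 13.7% of the genes tested, and 1 member was higher (Sag) beside 14.8%. The median log2 ratio of the 9 genes was 0.00, and that of all genes tested was 0.02. As deposited, 4 members were lower in IR12 and 5 higher, beside 48.2% lower and 51.8% higher among all genes tested. Only 1 member was lower when both libraries were scaled to the same sum over all genes. With the sums equalised without small non-coding RNAs, 7 were lower. These scalings shift all genes together, with medians of 0.60 and -0.06 over genes at FPKM of at least 1 in both libraries. The counts of 1 and 7 are therefore no result about the members alone. Sag and Pde6a were higher, and Rcvrn was lower, under each of the 5 scalings tried, while the other 6 genes changed sign under at least 1 of them. The scalings shifted IR12 by -0.11 to 0.65 in log2 units, so whether a sign held follows from the ratio as deposited. Pde6a, at 0.34, kept its sign and Pde6b, at -0.31, did not, since the largest shift was upward. The share of all genes that kept their sign was not counted. In bulk retina, fewer rods and less RNA per rod cannot be told apart.

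**Figure D1:**
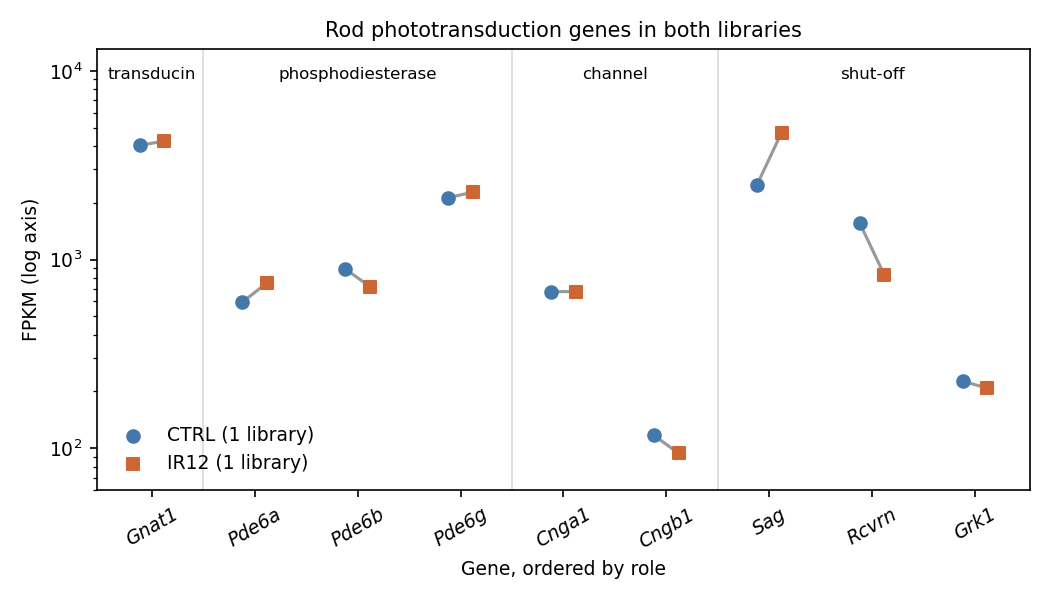
FPKM of the 9 rod phototransduction genes on a log axis in CTRL (circles) and IR12 (squares), 1 library each, with a line joining the values of a gene. Sag and Rcvrn have the steepest lines, in opposite directions, and the levels run from 93.9 for Cngb1 in IR12 to 4703 for Sag in IR12.

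Scaling matters for genes with small differences, since the summed FPKM was 1402321 in CTRL and 895200 in IR12. Small RNA genes, recognised by symbol, made up 68.0% of the sum in CTRL and 46.3% in IR12. Equalising the sums over all genes (TPM scale) multiplied IR12 relative to CTRL by a factor of 0.65 in log2 units, less for low genes once the pseudocount is added, and put the median of the genes at FPKM of at least 1 in both libraries at 0.60, against 0.03 as deposited. Against that shift of all genes, the members' median of 0.65 on the TPM scale lay close to the middle. Equalising the sums without small RNAs lowered IR12 by 0.10 (a log2 shift of -0.10). Of the genes tested, 832 were at least 2-fold lower and 892 higher as deposited, which puts 48.3% of these calls on the lower side, and on the TPM scale 436 were lower and 2817 higher, with 13.4% on the lower side. FPKM gives no read counts. Among 25 locus lengths shared by several short genes, the median ratio of the lowest repeated value was 1.71, CTRL over IR12. Of these lengths, 17 lay within 1% of that median and the others did not. Whether this ratio reflects the numbers of reads was not tested, and it was not set against the read totals of the study.

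**Figure D2:**
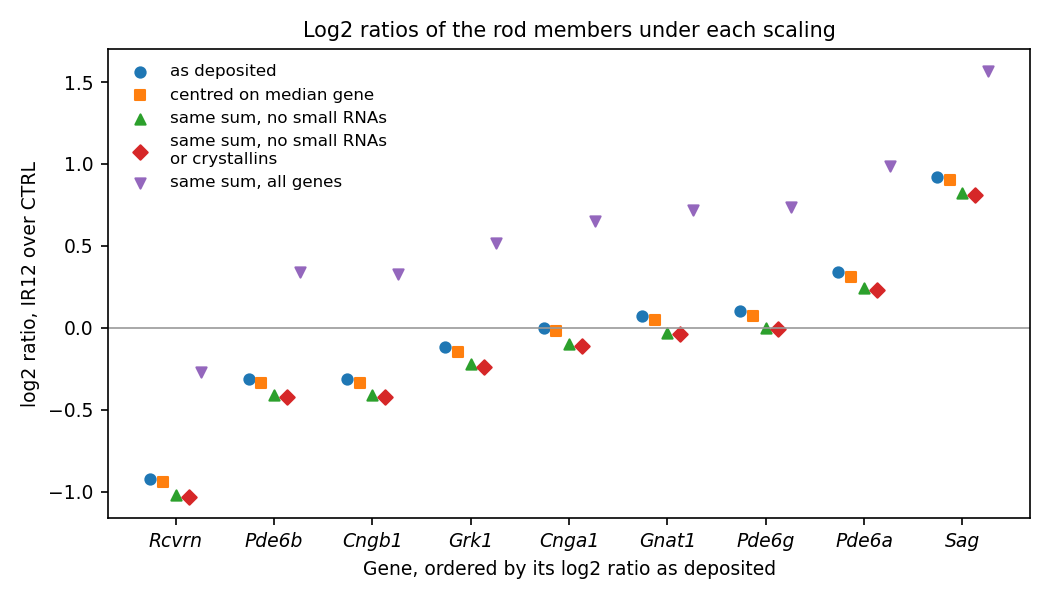
Log2 ratio, IR12 over CTRL, of each of the 9 genes under 5 scalings of the same libraries, with genes ordered by the ratio as deposited. Each scaling shifts these genes by nearly the same amount, so their order stays nearly the same by construction. Rcvrn stays below 0 and Pde6a and Sag above 0, and the other 6 genes cross 0 under at least 1 scaling.

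Transducin's rod alpha subunit is encoded by Gnat1 (ENSRNOG00000017589), listed at chr8:116433302-116469915 (on rn6, as for the other members). That locus overlaps the listed locus of the neighbouring gene Sema3f. Gnat1 was at FPKM 4027 in CTRL and 4237 in IR12. That was a ratio of 1.05 and a log2 ratio of 0.07, which became -0.04 with the sums equalised without small RNAs and crystallins. Gnat1 was the most abundant member in CTRL, and leaving out small RNAs it ranked 4 among all genes in both libraries. Sema3f had 9.78 in CTRL and 10.7 in IR12, a small part of the Gnat1 level. The partners of Gnat1 in the rod G protein are Gnb1 and Gngt1. Gnb1, the beta subunit, had 3032 in CTRL and 2257 in IR12. Gngt1, the rod gamma subunit, had 12096 in CTRL and 8644 in IR12 and was the most abundant gene other than small RNAs in both libraries. The ratio of Gngt1 to Gnat1, which no scaling of a library can move, was 3.0 in CTRL and 2.04 in IR12, so the gamma subunit was lower relative to the alpha subunit after the injury. Phosducin (Pdc), which binds the beta and gamma subunits, differed further, with a ratio to Gnat1 of 1.06 in CTRL and 0.434 in IR12. Both ratios to Gnat1 were chosen after the values were seen.

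Phosphodiesterase 6 of rods is built from the catalytic subunits Pde6a (alpha) and Pde6b (beta) and the inhibitory subunit Pde6g (gamma). Pde6a (ENSRNOG00000017816, chr18:56544652-56617480) was at FPKM 595 in CTRL and 754 in IR12, a ratio of 1.27. Pde6b (ENSRNOG00000000065, chr14:2328750-2371883) had 891 in CTRL and 718 in IR12, a ratio of 0.806. The catalytic subunits therefore differed in opposite directions as deposited, with log2 ratios of 0.34 for Pde6a and -0.31 for Pde6b, although Pde6b was higher in IR12 on the TPM scale (0.34). Their ratio within a library is free of scaling. Pde6b/Pde6a was 1.5 in CTRL and 0.953 in IR12, so the beta subunit was the more abundant in the control retina and the alpha subunit, by a small margin, in the injured one. Pde6g (ENSRNOG00000046962, chr10:109620980-109622745) had 2126 in CTRL and 2274 in IR12, a ratio of 1.07, and its log2 ratio of 0.10 became -0.01 with the sums equalised without small RNAs and crystallins. The inhibitory subunit was the most abundant of the 3 in both libraries. Pde6g/Pde6a was 3.57 in CTRL and 3.02 in IR12, a smaller difference than that of Pde6b/Pde6a. Summed over the 3 subunits, the FPKM was 3612 in CTRL and 3746 in IR12. The opposite differences of the catalytic subunits thus nearly cancelled in the sum as deposited. On the TPM scale both were higher (0.99 for Pde6a and 0.34 for Pde6b), so nothing cancelled there. Transducin relative to its target had no single direction, since Gnat1/Pde6a was 6.76 in CTRL and 5.62 in IR12, while Gnat1/Pde6b, a ratio chosen after the values were seen, was 4.52 and 5.90. Against the sum of the 3 subunits Gnat1 hardly differed, with IR12 over CTRL at 1.05 for Gnat1 and 1.04 for the sum.

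Since the genes of the catalytic subunits differed in opposite directions as deposited, the 250 bases before their starts are shown here, from RefSeq (build GRCr8), with that of Sag, the member with the largest log2 ratio. Promoter entries were matched for 5 of the 9 members (Pde6a, Pde6b, Cnga1, Cngb1 and Sag). Pde6a lies on the plus strand at chr18:56946999-56947248, Pde6b on the minus strand at chr14:1511436-1511685 and Sag on the plus strand at chr9:95916947-95917196. Each is written 5′ to 3′ in the direction of the gene, and capitals mark TAATCC, the core that the photoreceptor factor CRX binds, or TGCTGA, a half-site of the rod factor NRL.
Pde6a: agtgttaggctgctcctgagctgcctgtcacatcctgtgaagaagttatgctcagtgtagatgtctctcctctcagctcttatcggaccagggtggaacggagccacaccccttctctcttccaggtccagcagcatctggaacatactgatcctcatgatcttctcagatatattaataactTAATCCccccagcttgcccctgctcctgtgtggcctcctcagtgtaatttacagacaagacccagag
Pde6b: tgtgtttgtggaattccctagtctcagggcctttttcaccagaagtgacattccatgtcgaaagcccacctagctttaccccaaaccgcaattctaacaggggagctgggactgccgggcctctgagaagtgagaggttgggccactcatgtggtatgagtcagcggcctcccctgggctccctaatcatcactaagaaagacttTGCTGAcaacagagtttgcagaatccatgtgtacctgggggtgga
Sag: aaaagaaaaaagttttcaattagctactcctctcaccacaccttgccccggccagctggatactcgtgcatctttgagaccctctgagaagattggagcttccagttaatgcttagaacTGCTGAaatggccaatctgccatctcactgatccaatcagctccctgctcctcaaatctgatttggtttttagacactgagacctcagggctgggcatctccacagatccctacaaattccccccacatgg
The windows searched ran from 250 bases before to 50 bases after the start, on both strands (GGATTA and TCAGCA are the reverse forms). The Pde6a window held TAATCC, beginning 67 bases before the start, and no TGCTGA. The Pde6b window held TGCTGA, beginning 45 bases before the start, and no TAATCC. The Sag window held TGCTGA 131 bases before the start and no TAATCC, and the Cngb1 window held TAATCC at 62 and 29 bases and TGCTGA at 142 bases before the start. No window of the 5 held TATAAA, and the Cnga1 window held none of these motifs. Of all 33365 promoters of the same length, 7.14% held TAATCC, 18.4% held TGCTGA and 14.2% held TATAAA on either strand. A match describes letters in a window and is not a binding site, and no match says nothing of the factor.

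The cyclic GMP-gated channel of rods is formed by Cnga1, the pore-forming alpha subunit, and Cngb1, the beta subunit. Cnga1 (ENSRNOG00000004778, chr14:38155759-38171010) was at FPKM 675 in CTRL and 677 in IR12, the smallest difference of the 9 genes, with a ratio of 1.0. Cngb1 (ENSRNOG00000031773, chr19:10129641-10212050) had 117 in CTRL and 93.9 in IR12, a ratio of 0.803. Its log2 ratio of -0.31 turned to 0.33 on the TPM scale. Cngb1 was the least abundant member in both libraries, and its listed locus overlaps that of Tepp, which had 0 in CTRL and 0.117 in IR12. The beta subunit was also lower relative to the alpha subunit, since Cngb1/Cnga1 was 0.173 in CTRL and 0.139 in IR12. The summed FPKM of the channel genes was 792 in CTRL and 771 in IR12.

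The shut-off genes differed most from each other. Sag (ENSRNOG00000018185, chr9:94928489-94972027), whose product stops further activation of transducin, was at FPKM 2482 in CTRL and 4703 in IR12. This was a ratio of 1.90 and a log2 ratio of 0.92, higher than that of 92.4% of the genes tested. Sag moved from rank 6 to rank 3 among genes other than small RNAs, and from 19.5% to 32.5% of the summed FPKM of the 9 genes. Rcvrn (ENSRNOG00000003633, chr10:54246250-54253996), recoverin, which restrains Grk1 when calcium is high, had 1558 in CTRL and 825 in IR12. Its ratio was 0.529 and its log2 ratio was -0.92, with 7.0% of the genes tested at a lower ratio. Rcvrn went from rank 10 to rank 29, and from 12.3% to 5.69% of the members' sum. Grk1 (ENSRNOG00000018430, chr16:81153489-81165442), the kinase of the shut-off step, had 227 in CTRL and 208 in IR12, a ratio of 0.917, and its log2 ratio of -0.12 turned to 0.52 on the TPM scale. Grk1 thus lay between the other shut-off genes in its ratio, and far below them in level.

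Among the 6 ratios between members that were listed for the comparison, those of the shut-off genes differed most. Grk1/Sag was 0.0914 in CTRL and 0.0442 in IR12 (log2 change -1.05), so arrestin was higher relative to Grk1 after the injury. Rcvrn/Grk1 was 6.87 in CTRL and 3.97 in IR12 (log2 change -0.79). Sag/Rcvrn, a ratio chosen after the values were seen, was 1.59 in CTRL and 5.70 in IR12, which is a 3.58-fold difference. Each of the 6 listed ratios was lower in IR12, with Pde6g/Pde6a the least changed (-0.24). Pde6a or Sag, the members that were higher under each scaling, stand in the denominator of 4 of these 6.

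The 9 genes together had a summed FPKM of 12698 in CTRL and 14489 in IR12, which was 2.83% and 3.02% of the sum over genes other than small RNAs. Sag alone was 2221 higher in IR12 and Rcvrn differed by -733, beside 210 for Gnat1. By role, the summed FPKM of IR12 over CTRL as deposited was 1.05 for transducin, 1.04 for phosphodiesterase, 0.973 for the channel and 1.34 for the shut-off genes. Values this near 1 can turn with the scaling. On the TPM scale both channel genes were higher (0.65 for Cnga1 and 0.33 for Cngb1). With the sums equalised without small RNAs Gnat1 was at -0.03. As deposited, the shut-off genes, through Sag, thus carried most of the difference in the sum.

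Genes at the levels of the members served as a closer background. Of the 646 genes other than small RNAs with a CTRL FPKM of at least 117, the level of Cngb1, 5.11% were at least 2-fold lower in IR12 and 4.49% at least 2-fold higher, where 0 members passed in either direction. At 1.5-fold these shares were 14.2% lower and 14.6% higher, beside 1 member of 9 each way. The median log2 ratio of the 646 genes was -0.04, close to the 0.00 of the members. These genes were picked by their level in CTRL, which favours genes that are lower in IR12, and small RNAs were left out after the data were seen because 108 of the 160 among genes at this level were at least 2-fold lower.

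**Figure D3:**
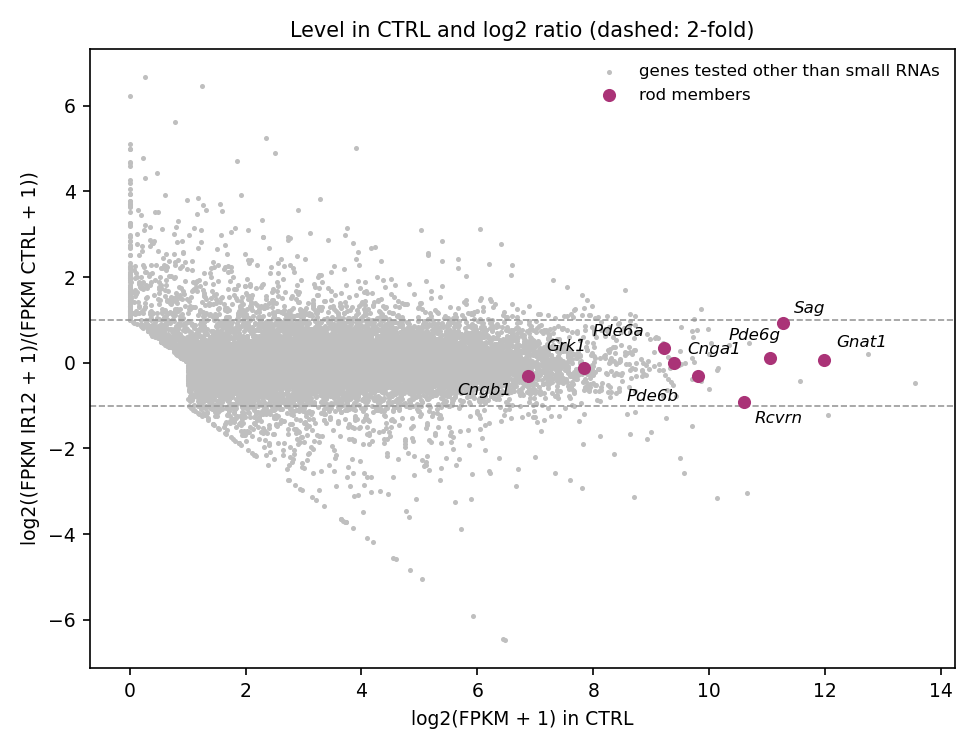
Level in CTRL, as log2(FPKM + 1), and log2 ratio, IR12 over CTRL, of the genes tested other than small RNAs (grey) and the 9 rod phototransduction genes (purple), with dashed lines at 2-fold. The 9 genes lie among the most abundant genes and between the dashed lines, with Sag and Rcvrn nearest to them.

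By a rule on both values at once, 5 genes outside all lists lay nearest to the median member in the pair of log2(FPKM + 1) values of CTRL and IR12. Cox6c, a subunit of cytochrome c oxidase, had 861 and 696 in CTRL and IR12, at a distance of 0.12 from the members' medians. Ddx17, an RNA helicase, followed with 928 and 687 at a distance of 0.15. Calm3, a calmodulin gene, had 853 and 868, and H3f3a, a histone gene, had 768 and 765, both at 0.21. Tmsb4x, which encodes a thymosin that binds actin, had 833 and 637 at 0.26. Each of these distances rests on 2 libraries.

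Most cone phototransduction genes were far less abundant than the members, although Gnat2 (179 in CTRL and 138 in IR12) lay above Cngb1 in both libraries, as did Arr3 in CTRL and Gnb3 in IR12. Of the 11 cone phototransduction genes 10 were lower in IR12 as deposited, with a median log2 ratio of -0.37, although on the TPM scale 5 were lower and the median was 0.27. With the sums equalised without small RNAs, 10 of the 11 cone genes and 7 of the 9 members were lower, and the difference between the lists was not tested. With the pseudocount, 1 of them was at least 2-fold lower as deposited, the cone opsin gene Opn1sw, with 6.68 in CTRL and 2.66 in IR12. That count was 2 after centring on the median gene, 3 with the sums equalised without small RNAs and 0 on the TPM scale. By FPKM without a pseudocount, Cngb3 (a ratio of 0.467) and Arr3 (0.498) also passed 2-fold, beside 0.398 for Opn1sw. The cone gene that was higher as deposited was Gnb3, the cone transducin beta subunit, with 71.9 in CTRL and 147 in IR12, and it was the 1 cone gene at least 2-fold higher, as also on the TPM scale but not after centring or without small RNAs. Ratios of a rod gene to its cone counterpart do not depend on scaling. Of the 7 pairs listed for the comparison, all with a member, 6 were higher in IR12, with a median log2 change of 0.49. Pairs of other listed genes went both ways. IR12 over CTRL was 0.744 for Gnb1 beside 2.05 for Gnb3, and 0.701 for Slc24a1 beside 0.873 for Slc24a2. It was 0.715 for Gngt1 beside 0.637 for Gngt2, where the rod gene was higher relative to the cone gene. These pairs were added after the values were seen.

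Gnat1/Gnat2, for the transducin alpha subunits, was 22.5 in CTRL and 30.7 in IR12. Pde6a/Pde6c was 24.6 in CTRL and 34.4 in IR12, whereas Pde6b/Pde6c was 36.8 and 32.8, the 1 pair that was lower in IR12 (a log2 change of -0.16). Pde6c is the catalytic subunit of cones and was the same denominator in both pairs, so these pairs are not independent. For the inhibitory subunits, Pde6g/Pde6h was 51.4 in CTRL and 92.3 in IR12, while Pde6h itself had 41.4 and 24.6. For the channel, Cnga1/Cnga3 was 363 and 398, with Cnga3 at 1.86 and 1.70, where a small difference in level moves the ratio. Cngb1/Cngb3 was 10.7 and 18.4, because Cngb3, at 10.9 and 5.09, differed more than Cngb1. The arrestins stood furthest apart. Sag/Arr3 was 17.9 in CTRL and 68.2 in IR12 (log2 change 1.93), with Sag higher and the cone arrestin gene Arr3 lower (138 and 69.0) under each scaling tried.

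**Figure D4:**
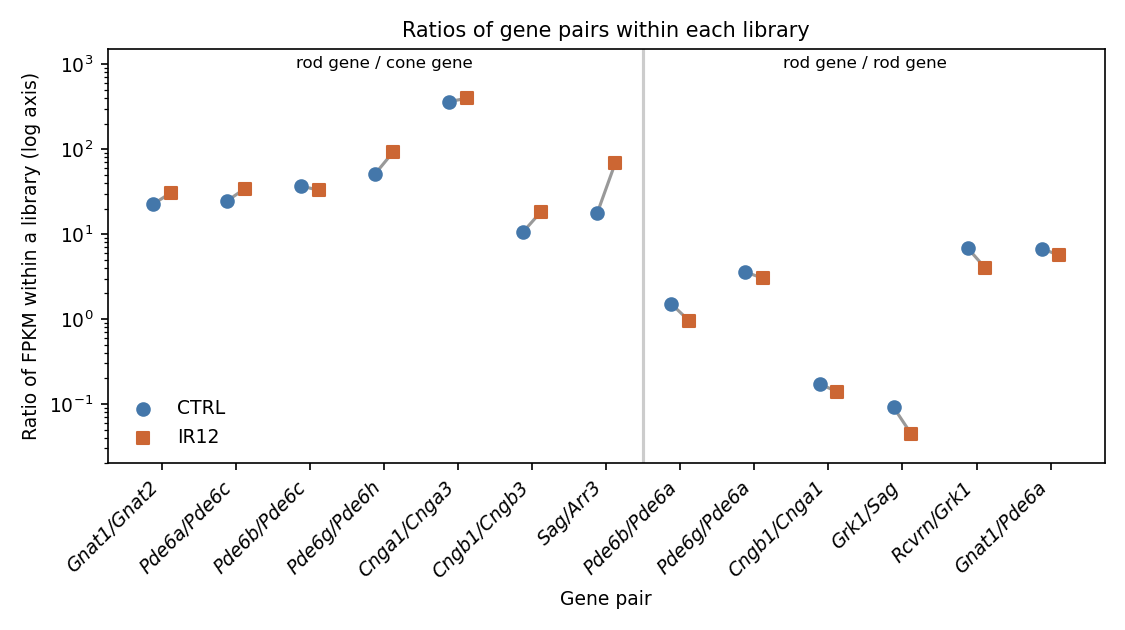
Ratio of FPKM within CTRL (circles) and within IR12 (squares), on a log axis. Shown are the 7 listed pairs of a member and its cone counterpart and the 6 listed pairs of members. Sag/Arr3 has the steepest line of the rod to cone pairs, Pde6b/Pde6c is the 1 such pair with a lower value in IR12, and all 6 pairs of rod genes are lower in IR12.

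Genes that act with the members in rods, or in rods and cones, were mostly lower in IR12 as deposited. In this list 11 genes were matched and 10 tested, of which 8 were lower and 2 higher, with a median log2 ratio of -0.46, but on the TPM scale 2 were lower and the median was 0.18. Phosducin was the 1 gene of the list that was at least 2-fold lower as deposited, with 4269 in CTRL and 1840 in IR12, and it did not pass 2-fold on the TPM scale (-0.57). Rgs9 and Gnb5, parts of the complex that switches transducin off, had 245 and 169 in CTRL and 175 and 162 in IR12, while their anchor Rgs9bp had 1.78 and 2.08. The exchanger Slc24a1, which removes calcium from the outer segment, had 264 in CTRL and 185 in IR12. The activators of guanylate cyclase, which restore cyclic GMP, differed in opposite directions as deposited. Guca1a had 225 in CTRL and 165 in IR12, and Guca1b had 437 in CTRL and 718 in IR12. Of the cyclases, Gucy2f had 266 in CTRL and 145 in IR12, Gucy2e was listed at 0 in both libraries, and the row named Gucy2d, which was chosen after its values were seen, had 48.2 and 43.3. A value of 0 is no sign that these genes were off, because the 37 mitochondrial genes also stood at 0 in both libraries.

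Genes of the outer segment, the part of the rod that holds the cascade, had a median log2 ratio of 0.05 over 15 matched genes of 16, close to that of the members. As deposited 7 were lower and 8 higher, and on the TPM scale 1 was lower. As deposited, 4 of these genes passed 2-fold on the higher side and 1 on the lower, a wider spread than among the members, and on the TPM scale these counts were 5 and 0. Fscn2, an actin-bundling protein of photoreceptors, had 19.2 in CTRL and 104 in IR12. Impg2, a matrix protein around photoreceptors, had 374 in CTRL and 1223 in IR12. Prom1, which is needed to form the disks, had 229 and 553, and the kinase gene Mak had 96.3 and 250. Reep6 was the gene at least 2-fold lower as deposited, with 64.7 and 27.1. Others lay near their control level, such as Rom1 with 727 and 710 and Rp1 with 1143 and 1045.

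Transcription factors of photoreceptors were lower in 8 of 9 tested genes as deposited, with a median log2 ratio of -0.45, but in 4 of 9 on the TPM scale, where the median was 0.18. Crx, whose core motif is marked in the promoter of Pde6a, had 96.8 in CTRL and 95.5 in IR12. Nrl, which directs the rod fate, had 54.1 and 39.4, and its target Nr2e3 had 27.3 and 23.5. Samd7, at 44.6 and 21.7, was the 1 gene of this list that was at least 2-fold lower as deposited, and Neurod1, at 96.4 and 137, was the 1 that was higher as deposited. With the sums equalised without small RNAs, 2 were at least 2-fold lower. On the TPM scale 0 were at least 2-fold lower and 1 was at least 2-fold higher. Otx2 was listed at 0 in both libraries.

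**Figure D5:**
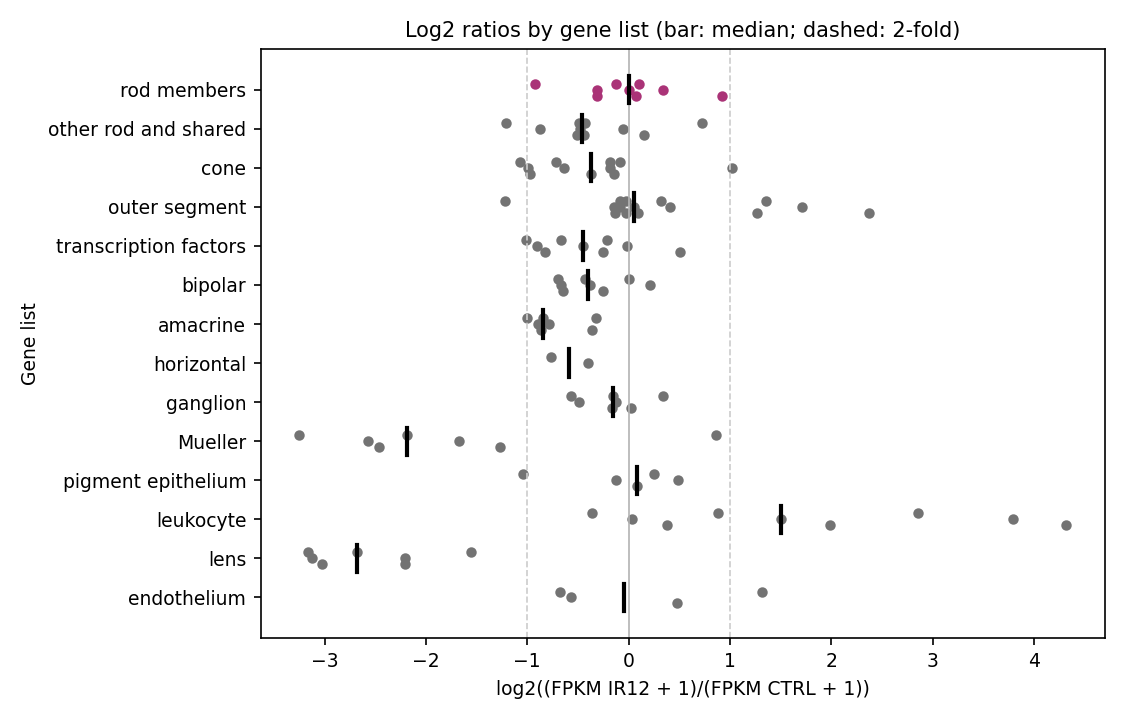
Log2 ratio as deposited, IR12 over CTRL, of each tested gene in the lists used here, with a bar at the median of each list and dashed lines at 2-fold. The rod members centre on 0.00, and cone genes and transcription factors on -0.37 and -0.45 (0.65, 0.27 and 0.18 on the TPM scale, in that order). The medians of Mueller and lens genes lie far to the left, with Vim on the right, and that of leukocyte genes to the right, with Cx3cr1 on the left.

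Markers of Mueller glia, lens and leukocytes had medians further from 0 than the members, and their part in the members' values was not tested. Of the 7 markers of Mueller glia, 6 were at least 2-fold lower in IR12 (5 on the TPM scale), and their summed FPKM was 1562 in CTRL and 547 in IR12. The most abundant, Glul, had 754 and 126, Rlbp1 had 126 and 26.8 and Aqp4 had 48.0 and 4.16, whereas Vim had 121 and 221. All 7 lens markers were at least 2-fold lower in IR12, also on the TPM scale, with a sum of 3902 in CTRL and 527 in IR12 and with Cryba1 (1614 and 196) the most abundant. The 15 crystallin genes made up 0.993% of the sum over genes other than small RNAs in CTRL and 0.129% in IR12. Retinal cells also express crystallins, and the source of this RNA was not tested. Taking them out of the equalised sums moved the shift of IR12 from -0.10 to -0.11. Of the 9 leukocyte markers 8 were higher in IR12 (7 with the sums equalised without small RNAs), with a sum of 21.6 in CTRL and 135 in IR12. Among them Lyz2, the most abundant, had 9.73 and 76.9, Ptprc had 0.408 and 2.98, and S100a8 stood at 0 in CTRL, beside 12.8 in IR12.

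Neurons that follow the rods were lower in IR12 as deposited in most of their markers, at smaller differences. Of the 8 bipolar markers 6 were lower (3 on the TPM scale), with a sum of 652 in CTRL and 501 in IR12. Trpm1, the most abundant, had 189 and 159, and Prkca, which marks the rod bipolar cells that receive the rods' signal, had 125 and 79.7. All 7 amacrine markers were lower (5 on the TPM scale), with a sum of 517 in CTRL and 304 in IR12 and with Calb2 (275 and 148) the most abundant. Of the 8 ganglion cell markers 7 were tested and 5 were lower (0 on the TPM scale), with a sum of 355 and 293, led by Nefl (132 and 88.8). Both tested horizontal cell markers were lower, with Calb1 at 74.2 in CTRL and 43.2 in IR12.

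Other sources of RNA were at low levels beside most members. The exception was Cngb1 (117 in CTRL and 93.9 in IR12). It lay below the endothelial sum in both libraries and below the pigment epithelium sum in IR12. The 7 pigment epithelium markers summed to 80.6 in CTRL and 100 in IR12, mostly from Ttr (61.8 and 87.4), and Rpe65 had 11.1 and 4.88. The 4 matched endothelial markers summed to 124 and 102, led by Kdr (108 and 66.8), with 2 lower and 2 higher. The higher ones were Flt1, with 12.3 and 32.3, and Cdh5, with 0.883 and 1.63. Of the 4 blood markers 2 were matched, of which Hbb had 20.4 in CTRL and 35.1 in IR12. Among widely expressed genes, Gapdh had 716 and 690, a log2 ratio of -0.05 (0.59 on the TPM scale), Actb had 260 and 537, a log2 ratio of 1.04, and Hprt1 was listed at 0 in both libraries. The members' median of 0.00 lay near that of Gapdh and below that of Actb.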

How the data were processed

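Retinal RNA of 1 CTRL and 1 IR12 rat library was sequenced with single-end reads, which the study shortened before use. The authors deposited gene-level FPKM for both libraries, and the submitters' processing notes name STAR 2.5.2b, Cuffdiff 2.2.0 and the build rn6. Listed starts were raised by 1 to count from 1. Log2 ratios were computed on FPKM as deposited with a pseudocount of 1, over genes with FPKM of at least 1 in at least 1 library. No test was possible with 1 library per group. The members and gene lists were chosen with earlier results of these data known. Named genes were the members, genes of the lists, Gapdh, Actb, Hprt1 and the 5 genes outside all lists nearest to the members' medians. Sema3f, Tepp and Gucy2d were named outside this rule, after their values were seen. Alternatives were other pseudocounts, minimum levels, thresholds and scalings. Leaving out crystallins from the scaling sum was added after seeing the data. FPKM columns were read with Python 3.11.15, numpy 2.4.6, pandas 2.3.3 and matplotlib 3.10.9, and the scripts were tested on simulated data. Circular RNAs were not analysed here, and 1 further gene, planned for the list of other rod and shared genes, was left out of its counts and is not reported here.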

Additional observations from a re-analysis of the deposited data

How the results depend on the processing

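Of 170 values recomputed under the alternatives, 39 could not move because every member passed each filter on level. Of the other 131, 85 moved by no more than 0.1 on the log2 scale (or 1.5 times, for counts). Some of these 85 could not move either, so their number is no measure of stability. Without a minimum FPKM, for example, the cone list kept its 11 genes. Genes below FPKM 1 in both libraries also cannot reach 2-fold with a pseudocount of 1. On the TPM scale, medians were 0.18 for the other rod and shared genes, 0.27 for cone genes, 0.18 for transcription factors, 0.69 for outer segment genes and 0.65 for the members. On that scale Pde6b was at 0.34, Cngb1 at 0.33 and Grk1 at 0.52, each with its sign turned, Gnat1 at 0.72, Pde6a at 0.99, Pde6g at 0.74, Cnga1 at 0.65, Sag at 1.57 and Rcvrn at -0.27, 1 member was lower, 1 was at least 2-fold higher (Sag), and 436 genes were at least 2-fold lower and 2817 higher. With the sums equalised without small RNAs, 7 members were lower and 1 was at least 2-fold lower (Rcvrn). Beside it, 939 genes were at least 2-fold lower and 789 higher. The member counts were the same without crystallins, beside 950 genes at least 2-fold lower and 774 higher. In that setting the log2 ratios were -0.04 for Gnat1, 0.23 for Pde6a, -0.42 for Pde6b, -0.01 for Pde6g, -0.11 for Cnga1, -0.42 for Cngb1, 0.81 for Sag, -1.03 for Rcvrn and -0.24 for Grk1. There the medians were -0.11 for the members, -0.58 for the other rod and shared genes, -0.48 for cone genes, -0.07 for outer segment genes and -0.56 for transcription factors. At 1.5-fold, 1 member was lower and 1 higher, with 1861 and 2007 genes. With a minimum FPKM of 5 the cone median was -0.51. Among genes at the CTRL level of the lowest member or above, small RNAs included, 141 were at least 2-fold lower and 29 higher, the cone median was -0.68, over the 2 genes left, and that of transcription factors -0.82, from the 1 gene left. With a pseudocount of 1 the log2 change of Cngb1/Cngb3 was 0.65. No paired analysis was possible because each group holds 1 library.

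With 1 library per condition, differences between animals cannot be told apart from those of the injury. FPKM gives no read counts, so no counting interval was given. Reads shared between genes with overlapping listed loci (Gnat1 and Sema3f, Cngb1 and Tepp) were not examined.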
